A study of Mus musculus with 56 samples.

Results

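The insulin signalling components described here are 10 genes of mouse liver, namely the insulin receptor Insr, the receptor substrates Irs1 and Irs2, the regulatory PI3K subunit Pik3r1, the kinases Akt1 and Akt2, the forkhead factors Foxo1 and Foxo3, the adaptor Grb10 and the pseudokinase Trib1. They were picked by symbol for their place in the pathway, by a rule that holds no measured value but was set with earlier results of these data known, from the RNA-seq table of 23813 genes, and each gene is represented by the first of its transcripts in the table. All 10 were found, and all 10 passed the filter on low values, which asks for at least 0.1 RPKM (reads per kilobase of transcript, scaled to the depth of the library) in at least 4 of the libraries compared. Of the 56 samples in the series the 12 RNA libraries were used, together with a list of 37200 regions where histone H3 was acetylated at K9 or K27.

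The 12 libraries form 3 groups of 4 biological replicates, all from male mice that had received a low-iodine diet with PTU, a drug that blocks thyroid hormone synthesis. Hypothyroid WT mice were then injected with vehicle, whereas hyperthyroid WT mice were injected with T3, the active thyroid hormone, over the last days of the diet. Hypothyroid L-NCOR1ΔID mice received PTU and carry in the liver a mutant of NCOR1, a subunit of the NCoR corepressor complex, that has lost its domains for interaction with the thyroid hormone receptor (TR). L-NCOR1ΔID mice are on a mixed C57BL/6;129S background. The background of the WT mice of these libraries is not given in the sources used here, so a difference in strain cannot be told apart from genotype. No L-NCOR1ΔID mice with T3 were analysed here, so an effect of T3 in the mutant cannot be given. All groups thus share the diet and the drug, and the promoter behind the liver-specific allele is not given in the sources used here. The ages of the 12 mice are not given one by one; in the study's summary of its mice, which covers more animals than the libraries, L-NCOR1ΔID mice were younger on average than WT mice, so that age and genotype cannot be told apart.

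In the liver, insulin binds its receptor tyrosine kinase, which phosphorylates IRS proteins; these recruit PI3K through its regulatory subunit, and the lipid that PI3K makes brings AKT to the membrane. AKT in turn phosphorylates FOXO factors, which then leave the nucleus, so that genes of glucose production and Igfbp1 are lowered while genes of glucose use and lipid synthesis are raised. Much of this control acts on proteins through phosphorylation, which RNA-seq does not measure.

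Among libraries, the estimated depth was 29200000 to 38300000 reads in hypothyroid WT, 21300000 to 26200000 reads in hyperthyroid WT and 38100000 to 42800000 reads in hypothyroid L-NCOR1ΔID livers, so that the hyperthyroid libraries are the shallowest, and 0.1 RPKM stands for 2.13 to 4.28 reads per kilobase of transcript. As a check of the labels, mean Ncor1 was 14.7 RPKM in hypothyroid WT and 13.0 RPKM in hypothyroid L-NCOR1ΔID livers, a level of the whole transcript that does not show the deleted domains. Dio1, a TR target that encodes a deiodinase, was at 0.72 to 57.7 RPKM in hypothyroid and 459 to 641 RPKM in hyperthyroid WT livers, and Thrsp, another TR target, at a mean of 322 and 1597 RPKM. The summed level of 6 Kupffer cell and macrophage markers ranged from 42.2 to 59.9 RPKM in hypothyroid WT, from 132 to 218 RPKM in hyperthyroid WT and from 47.3 to 129 RPKM in hypothyroid L-NCOR1ΔID livers, and all 6 were called higher with T3; their part in the results on the 10 genes was not tested. The 5 hepatocyte markers, which check the tissue, summed to 37551 to 49196 RPKM in hypothyroid WT, to 19352 to 27887 RPKM in hyperthyroid WT and to 31422 to 35593 RPKM in hypothyroid L-NCOR1ΔID livers. The sum rests mostly on Alb, with means of 31804 RPKM in hypothyroid and 14325 RPKM in hyperthyroid WT livers. Alb and Ttr were called lower with T3, and only Ttr after the scaling of libraries given below. Cps1 was at 1140 to 1181 RPKM in hypothyroid and 694 to 1023 RPKM in hyperthyroid WT livers, without overlap, and was not called. Apoa1 (log2 fold change 0.12, adjusted p = 0.664) and Tat (0.29, adjusted p = 0.25) were also not called. The part of these markers was not tested either. The 4 acinar markers of the pancreas summed to 450 RPKM in hyperthyroid WT replicate 3, to 8.09 RPKM in hyperthyroid WT replicate 2 and to at most 1.72 RPKM in any other library, so that some values are also given without these replicates. In whole tissue, fewer cells of a type and less RNA per cell cannot be told apart.

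To place the genes before giving their levels, sequences that are known to bind TR or FOXO were searched around them, on the mouse genome build mm9 (NCBIM37). TR prefers direct repeats of AGGTCA with 4 bases between the repeats, and the acetylated regions within 100 kb of the start sites were searched on both strands for such repeats with at least 11 of the 12 bases of the repeats. Of the 10 genes, 5 had a match, and Akt1 had the perfect match that is shown first. The share of all genes with a match of at least 11 bases was not computed. The count of 5 thus has no background, and the shares of regions given below are not one. Capitals mark the 2 repeats.

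Akt1, chr12:113878482-113878497, minus strand, 12 of 12 bases: AGGTCAgaagAGGTCA
Akt1, chr12:113819334-113819349, plus strand, 11 of 12 bases: AGGTAAggaaAGGTCA
Insr, chr8:3255267-3255282, plus strand, 11 of 12 bases: AGGTCActttTGGTCA
Insr, chr8:3233300-3233315, minus strand, 11 of 12 bases: ATGTCAgaacAGGTCA
Irs1, chr1:82258526-82258541, plus strand, 11 of 12 bases: AGGTCAcatcAGGTGA
Irs2, chr8:10914308-10914323, plus strand, 11 of 12 bases: GGGTCAtcagAGGTCA
Foxo1, chr3:52146464-52146479, minus strand, 11 of 12 bases: AGGACAtttcAGGTCA

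The perfect match lies 34606 bp downstream of the Akt1 start site, beyond the end of Akt1 and within the neighbouring gene Adssl1, in an acetylated region of 7257 bp (chr12:113877408-113884664). Only 102 of the 37200 regions (0.274%) held a perfect match, and 1.95% of 12314 tested genes with a position had such a region within 100 kb. The matches at Insr, Irs1 and Foxo1 are intronic, whereas the second Akt1 match and the Irs2 match are outside the genes. A match with at least 11 bases was found in 4.48% of all acetylated regions, and more often in longer regions. Both Insr matches lie in a region of 38044 bp, and 23.1% of the regions nearest to it in length had a match. Most of those regions are shorter, since 98.9% of all regions are below 20599 bp, so 23.1% is not the share at that length. These are matches of letters, and binding of TR was not analysed here.

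The 250 bases before the Akt1 start site are shown because Akt1 gave the largest change among the 10 genes with T3 and because this stretch lies inside an acetylated region of 11091 bp (chr12:113903325-113914415). Capitals mark AGGTCA and the FOXO motif TGTTTAC, each searched on both strands, and the bases are in the direction of transcription.

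Akt1, chr12:113913096-113913345, minus strand: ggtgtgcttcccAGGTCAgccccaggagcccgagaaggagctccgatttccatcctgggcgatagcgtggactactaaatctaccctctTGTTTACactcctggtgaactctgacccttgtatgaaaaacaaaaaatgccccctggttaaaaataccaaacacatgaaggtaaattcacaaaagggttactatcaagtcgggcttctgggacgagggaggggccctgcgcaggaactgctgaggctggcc

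The sequence is RefSeq's and was placed on mm9 by an exact match. AGGTCA was found in 16.3% and TGTTTAC in 3.65% of the 32851 RefSeq promoters, which run from 250 bases before to 50 bases after a start site. A second Akt1 start site of RefSeq, at chr12:113912487, had neither motif, and neither motif was found in the promoters of Irs1, Irs2, Pik3r1, Akt2, Foxo1, Foxo3 or Grb10. Insr and Trib1 were not among these promoters and were not searched.

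Of the 10 genes, 9 had an acetylated region over the start site, as did 86.0% of the 12314 tested genes with a position. The exception was Grb10 (chr11:11830511-11938686), whose nearest region was 63136 bp from the start site, inside the gene, and which was also the gene with the lowest RNA level. Regions over the start sites were long at Foxo3 (20599 bp), Trib1 (20105 bp) and Pik3r1 (19737 bp), against a median of 3988 bp over all genes with such a region. Trib1 (chr15:59479905-59488105) lay whole within its region. The shortest were at Akt2 (5304 bp), Insr (6369 bp) and Foxo1 (6984 bp). Within 100 kb of a start site, the 10 genes had a median of 10 regions, with 4 at Grb10, 7 at Irs1 and Foxo3 and 18 at Irs2, and all genes with a position had a median of 7. The list of regions merges both acetylation marks and both thyroid states, so that it holds no level and no difference between groups.

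**Figure D1:**
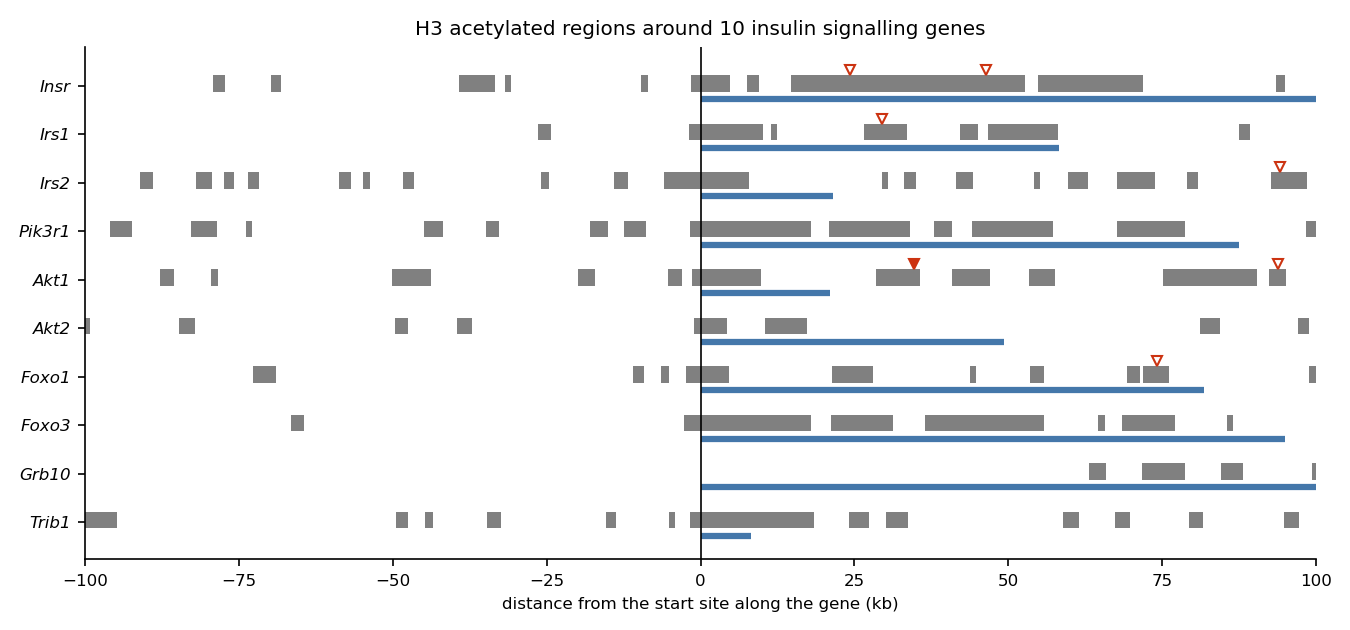
H3 acetylated regions (grey blocks) within 100 kb of the start site of each of the 10 genes, in kb along the direction of transcription, with the gene body as a blue line cut at 100 kb. Triangles mark direct repeats of AGGTCA with 4 bases between, filled for 12 and open for 11 matching bases; Grb10 has no region near its start site, and Akt1 has the filled triangle.

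In hypothyroid WT livers, Insr had the highest mean level of the 10 genes (20.4 RPKM ± 2.17, SD, n = 4), followed by Pik3r1 at 19.1, Akt1 at 15.6, Trib1 at 14.7, Foxo3 at 13.8 and Akt2 at 13.1 RPKM. Ranges of neighbours in this order overlapped from Insr down to Akt2. Foxo1 at 9.46 RPKM, Irs1 at 4.54 and Irs2 at 3.06 RPKM came next, and Grb10, an adaptor that inhibits the receptor, was lowest at 0.71 RPKM ± 0.07. Foxo1 lay below Akt2 and above Irs1 with no overlap of libraries, the ranges of Irs1 and Irs2 overlapped, and Grb10 lay below all others. In hyperthyroid WT livers, the order was led by Akt1, with no overlap with the next gene, Pik3r1. In hypothyroid L-NCOR1ΔID livers, the order began with Insr, Pik3r1 and Akt1, as in hypothyroid WT, and ended with the same 3 genes, while Trib1 came after Foxo3, Akt2 and Foxo1. RPKM is a level per length of transcript, so these orders compare genes on 1 scale.

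**Figure D2:**
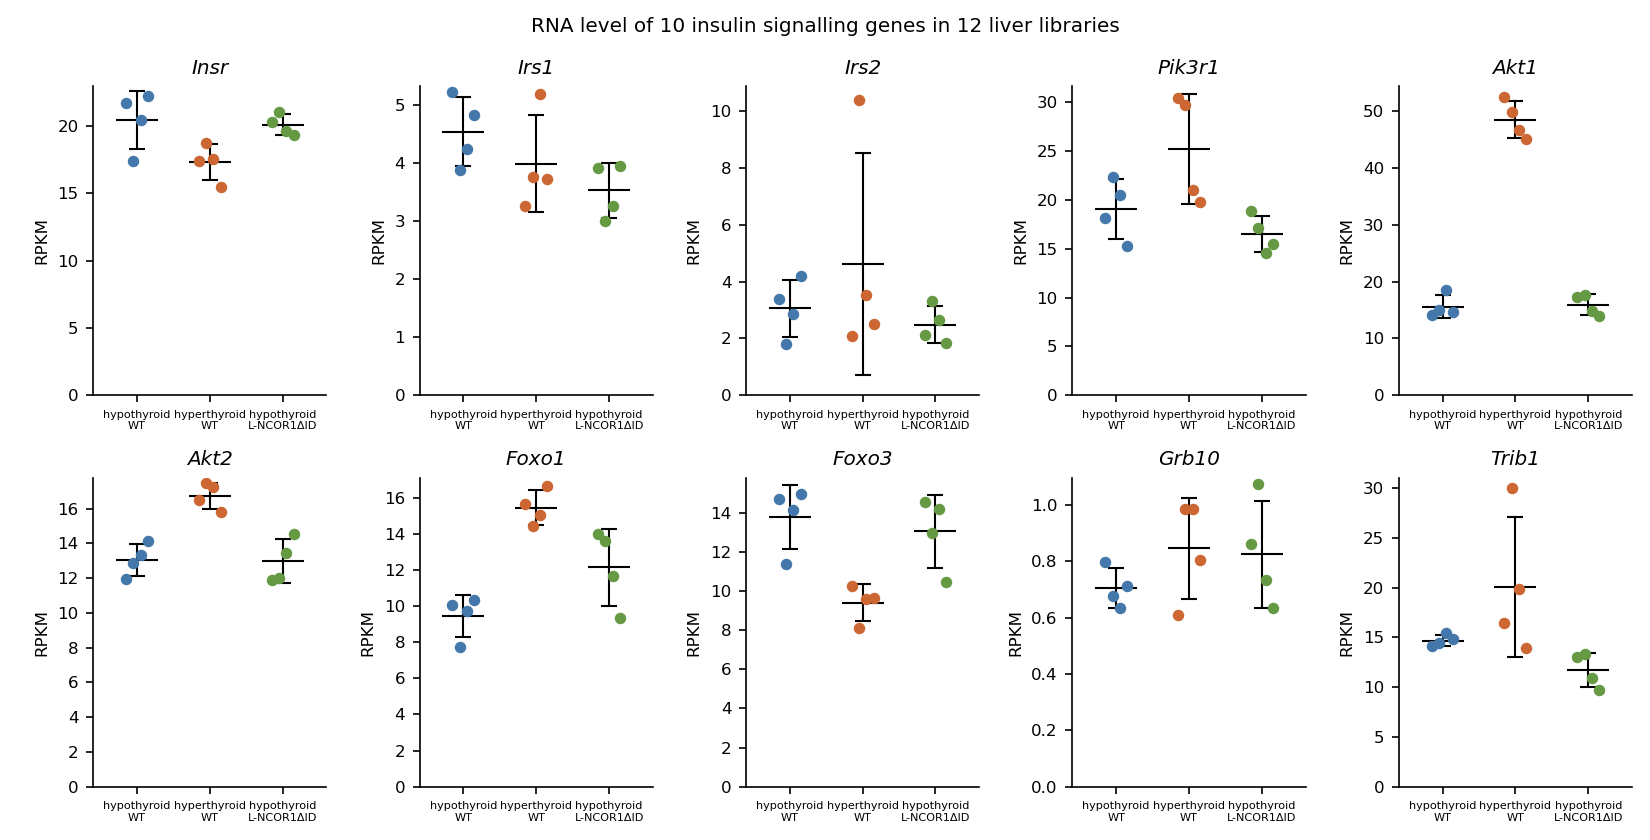
RNA level of the 10 genes in RPKM, with 1 point per library, the mean as a long line and the SD as bars, in 4 libraries per group. The 4 hyperthyroid WT libraries sit between 45.0 and 52.5 RPKM for Akt1, above all hypothyroid libraries, and a single hyperthyroid library stands far above the others for Irs2 and Trib1.

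To ask how T3 changes these RNAs, hyperthyroid and hypothyroid WT livers were compared by limma on log2(RPKM + 0.1). With T3, 4 of the 10 genes changed at an adjusted p under 0.01, Akt1, Foxo1 and Akt2 being higher and Foxo3 lower. Across all 13941 genes tested, 32.2% were called, 24.5% higher and 7.71% lower, so a share of 4 in 10 is near the background. The libraries of the groups did not overlap for the same 4 of the 10 genes, against 46.6% of all genes. Without hyperthyroid replicate 3 or without replicate 2, the libraries with the most acinar markers, again 3 of the 10 were higher and 1 lower, while without hypothyroid WT replicate 1 or 4 none was called lower (0 of 10). The median log2 fold change over all genes was 0.23 with T3, against 0.35 over the 10 genes, and dividing each library by the median of its gene ratios brought the median of all genes to 0.01. With that scaling, 2 of the 10 genes were higher (Akt1 and Foxo1) and 2 lower (Foxo3 and Insr), while calls over all genes went from 3413 higher and 1075 lower to 1729 higher and 1932 lower. Changes of the 10 genes with T3 are therefore given on both scales, and the level of Akt2 relative to the other genes depends on the scale. In L-NCOR1ΔID livers the median of all genes was 0.03, and those changes are given on the RPKM scale.

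Akt1 encodes the AKT isoform that is found in most tissues. Its level was 14.1, 14.97, 18.6 and 14.6 RPKM in the hypothyroid WT libraries and 52.5, 49.9, 46.6 and 45.0 RPKM in the hyperthyroid WT libraries. The lowest hyperthyroid library thus lay far above the highest hypothyroid library. The mean was 3.12 times higher with T3 (log2 fold change 1.64, SE 0.10, 95% interval 1.42 to 1.86, adjusted p = 7.5e-06), and 1.41 on the log2 scale after scaling (adjusted p = 2.27e-05). The log2 fold change was at the 96.6th percentile of all genes tested. Akt1 was called in each of the 8 fits that left out a library, with log2 fold changes between 1.60 and 1.73, the fit without hyperthyroid replicate 3 included. The other Akt1 transcript in the table had means of 15.7 and 49.0 RPKM, and Akt1 was called with that transcript too.

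Akt2, the AKT isoform most tied to glucose handling in liver, was at 11.9, 12.9, 13.4 and 14.1 RPKM in hypothyroid WT and at 16.5, 17.5, 17.2 and 15.8 RPKM in hyperthyroid WT libraries. The groups did not overlap, but the difference was small next to that of Akt1. The log2 fold change was 0.36 (SE 0.07, adjusted p = 0.00344), and it was 0.12 after scaling (adjusted p = 0.205), so Akt2 was called higher on the RPKM scale only. It also missed the threshold in the fits without hypothyroid WT replicate 1 (adjusted p = 0.0105) or replicate 2 (adjusted p = 0.0113).

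The balance between the 2 kinases was then compared within each library, where a scale factor shared by all genes of a library cancels. Akt1 was 1.03 to 1.39 times Akt2 in hypothyroid WT, 2.70 to 3.17 times in hyperthyroid WT and 0.96 to 1.46 times in hypothyroid L-NCOR1ΔID livers. The log2 ratio was higher with T3 by 1.28, with no overlap of libraries (two-sided exact permutation test, p = 0.0286, the smallest that 4 against 4 libraries allow, adjusted p = 0.0572 over the 6 ratio tests). The 95% interval of Akt1 and that of Akt2 in the limma fit, 1.42 to 1.86 against 0.19 to 0.52, do not touch.

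Foxo1 and Foxo3 encode transcription factors that AKT keeps out of the nucleus, with Foxo1 the best known for the control of glucose production in liver. They went opposite ways with T3. Foxo1 was at 10.05, 7.74, 9.75 and 10.3 RPKM in hypothyroid WT and at 15.7, 14.4, 15.1 and 16.7 RPKM in hyperthyroid WT libraries. All hyperthyroid libraries lay above all hypothyroid ones, at a log2 fold change of 0.71 (SE 0.10, adjusted p = 0.000533), or 0.48 after scaling (adjusted p = 0.00598). Foxo1 was called in each of the 8 fits that left out a library.

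Foxo3 was at 14.7, 11.4, 14.1 and 14.9 RPKM in hypothyroid WT and at 10.3, 8.11, 9.61 and 9.64 RPKM in hyperthyroid WT libraries. Again the groups did not overlap, with Foxo3 lower in the hyperthyroid libraries. The log2 fold change was -0.54 (SE 0.11, adjusted p = 0.00326), or -0.78 after scaling (adjusted p = 0.000565). On the RPKM scale Foxo3 fell just short of the threshold in 2 of the 8 fits without a library, those without hypothyroid WT replicate 1 (adjusted p = 0.0113) or replicate 4 (adjusted p = 0.0117).

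Within a library, the ratio of Foxo1 to Foxo3 was nearly the same in all hypothyroid WT livers, 0.68 to 0.69, although both genes had their lowest hypothyroid level in replicate 2. It was 1.52 to 1.77 in hyperthyroid WT livers, so the more abundant factor was Foxo3 in each hypothyroid WT library and Foxo1 in each hyperthyroid WT library. The ratio was 0.82 to 1.05 in hypothyroid L-NCOR1ΔID livers, between the other groups and overlapping neither. The log2 ratio differed from hypothyroid WT by 1.25 with T3 and by 0.43 in the mutant (two-sided exact permutation tests, p = 0.0286 for each, adjusted p = 0.0572 over the 6 ratio tests), so neither passes 0.05 once adjusted.

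**Figure D3:**
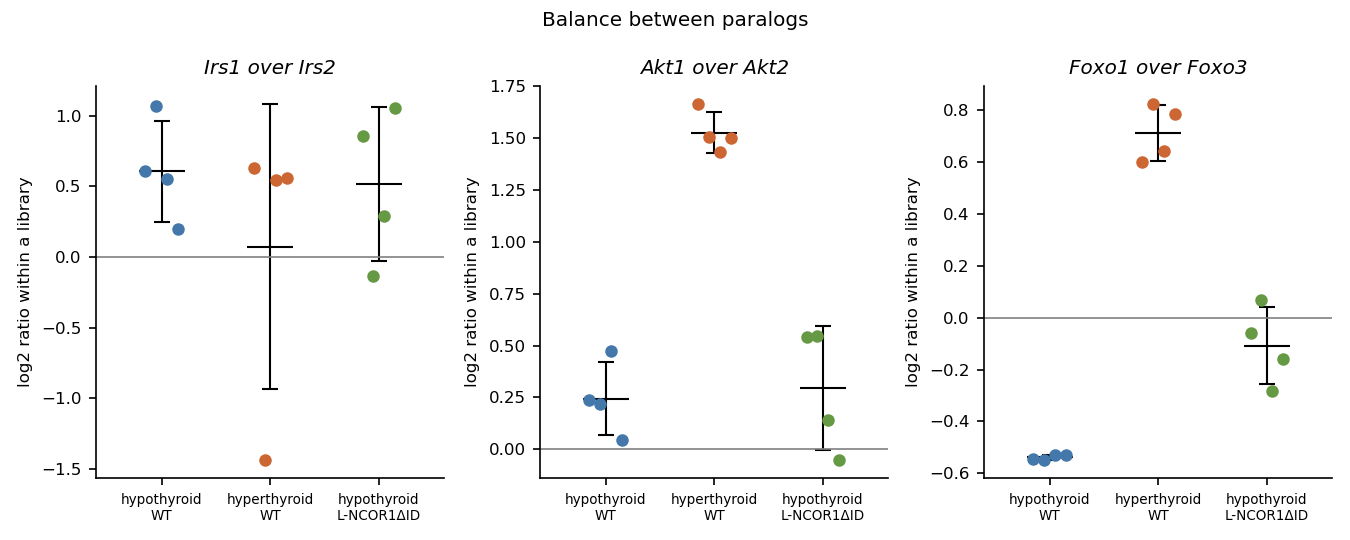
Log2 ratio of paralogs within each library (RPKM + 0.1), with 1 point per library, the mean as a long line and the SD as bars. The ratios of Akt1 to Akt2 and of Foxo1 to Foxo3 are higher in all 4 hyperthyroid WT libraries than in any other library, and the ratio of Irs1 to Irs2 is spread widely, with a single hyperthyroid library far below 0.

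The receptor and its substrates were not called with T3 on the RPKM scale. Insr was at 21.7, 17.4, 20.4 and 22.2 RPKM in hypothyroid WT and at 17.4, 18.7, 17.5 and 15.5 RPKM in hyperthyroid WT libraries. The ranges overlapped through hypothyroid replicate 2. The log2 fold change was -0.24 (95% interval -0.45 to -0.02, adjusted p = 0.0639), and against the other genes, after scaling, Insr was lower by a called amount (log2 fold change -0.47, adjusted p = 0.00625).

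Irs1 and Irs2 encode the substrates that link the receptor to PI3K. Irs1 was at 5.21, 3.87, 4.24 and 4.82 RPKM in hypothyroid WT and at 3.27, 3.77, 5.19 and 3.72 RPKM in hyperthyroid WT libraries (log2 fold change -0.19, adjusted p = 0.311, or -0.42 after scaling, adjusted p = 0.0334). Only hyperthyroid replicate 3, the library with the most acinar markers, overlapped the hypothyroid range. Without it, the log2 fold change of Irs1 on the RPKM scale was -0.33, still not called. Irs2 was at 3.39, 1.79, 2.87 and 4.18 RPKM in hypothyroid WT and at 2.08, 10.4, 3.52 and 2.495 RPKM in hyperthyroid WT libraries. A single hyperthyroid library, replicate 2, was thus 5.01 times the lowest library of its group for Irs2. The log2 fold change of Irs2 was 0.34 with a 95% interval of -0.71 to 1.39 (adjusted p = 0.563), or 0.11 after scaling (adjusted p = 0.875), and on the RPKM scale it turned to -0.14 without that library. The same library was also the highest of its group for the summed neutrophil markers (16.2 RPKM against 1.57 to 8.22 RPKM), for Socs3, an inhibitor of cytokine signalling (12.4 RPKM against 2.16 to 3.405 RPKM), and for Igfbp1 (409 RPKM against 59.3 to 132 RPKM), and the part of these in the level of Irs2 was not tested. The ratio of Irs1 to Irs2 was 1.15 to 2.099 in hypothyroid WT and 0.37 to 1.55 in hyperthyroid WT livers (two-sided exact permutation test, p = 0.457, adjusted p = 0.686).

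Trib1, a pseudokinase that binds the ubiquitin ligase COP1 and is known for its effect on hepatic lipid synthesis, had the same library at the top. It was at 14.1, 14.4, 15.4 and 14.8 RPKM in hypothyroid WT, where it varied least of the 10 genes (SD 3.9% of the mean), and at 16.5, 30.0, 19.8 and 14.0 RPKM in hyperthyroid WT libraries (SD 35.2% of the mean). The log2 fold change was 0.39 (SE 0.20, adjusted p = 0.134), or 0.15 after scaling (adjusted p = 0.588), and on the RPKM scale it was 0.18 without hyperthyroid replicate 2. Pik3r1, which encodes the regulatory subunit p85α, was at 18.1, 22.4, 20.5 and 15.3 RPKM in hypothyroid WT and at 30.4, 29.7, 21.0 and 19.8 RPKM in hyperthyroid WT libraries. Of the hyperthyroid libraries, 2 lay above all hypothyroid ones and 2 within their range (log2 fold change 0.39, 95% interval 0.00 to 0.77, adjusted p = 0.0853, or 0.15 after scaling, adjusted p = 0.544). Grb10 ranged from 0.63 to 0.80 RPKM in hypothyroid WT and from 0.61 to 0.99 RPKM in hyperthyroid WT livers (log2 fold change 0.22, 95% interval -0.17 to 0.60, adjusted p = 0.313, or 0.01 after scaling, adjusted p = 0.978).

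**Figure D4:**
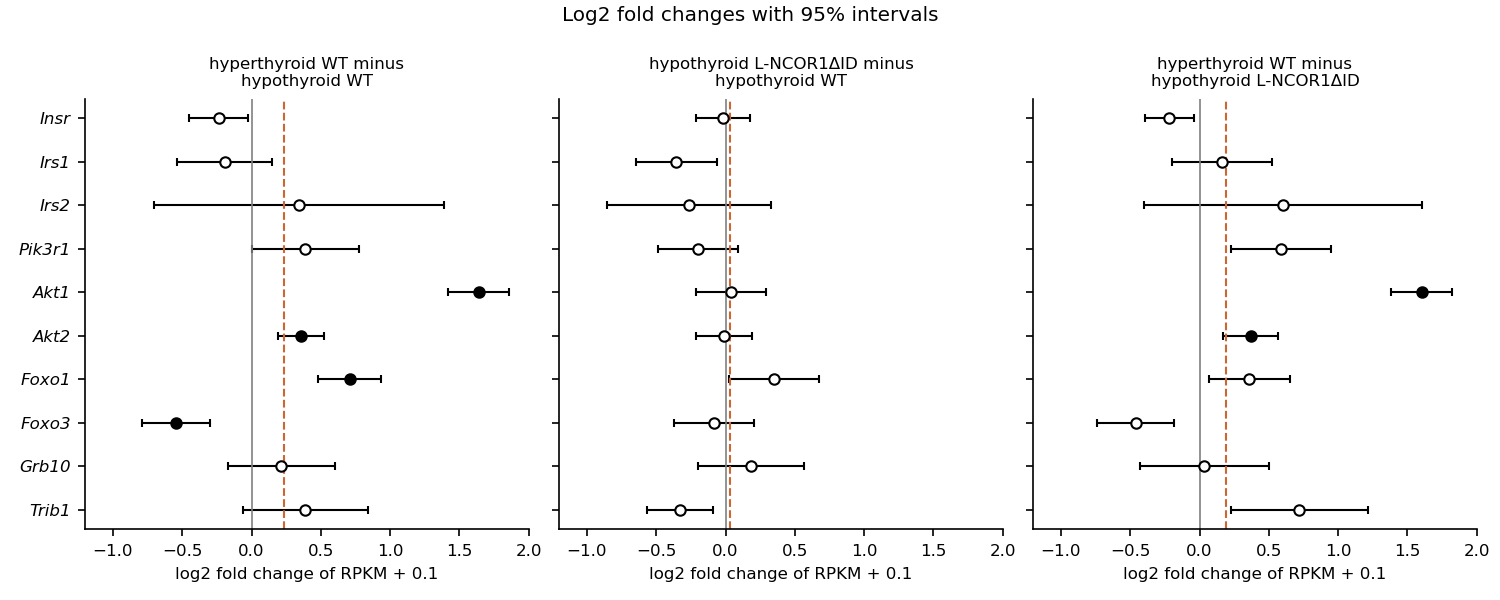
Log2 fold changes of the 10 genes with 95% intervals from limma in 3 comparisons, filled where the adjusted p is under 0.01. The dashed line is the median of all genes tested, at 0.23, 0.03 and 0.19 from left to right; Akt1 stands at 1.64 and 1.60 in the comparisons that involve T3 and at 0.04 in the mutant.

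To ask whether loss of the NCOR1 domains that interact with TR changes the same RNAs in the hypothyroid state, hypothyroid L-NCOR1ΔID and WT livers were compared. The study also found less of the deacetylase HDAC3 at some sites without TR in this mutant. It proposes that the lost domains may serve other regulators too, so a change in the mutant cannot be tied to TR alone. None of the 10 genes was called by limma, against 1.27% of 13790 genes tested, and 3 of the 10 had an unadjusted p under 0.05, against 20.5% of all genes. The median log2 fold change was -0.05 over the 10 genes and 0.03 over all genes. Akt1 was at 17.4, 17.6, 14.9 and 14.0 RPKM in hypothyroid L-NCOR1ΔID livers, which covers the hypothyroid WT range but for replicate 3 at 18.6 RPKM. Its log2 fold change was 0.04, with a 95% interval of -0.22 to 0.29 that excludes the change seen with T3. For Akt2 (log2 fold change -0.01, interval -0.21 to 0.19) and Insr (-0.02, interval -0.21 to 0.18), the intervals were as narrow.

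The 3 genes with an unadjusted p under 0.05 were Trib1, Irs1 and Foxo1. Trib1 was at 13.0, 13.3, 10.9 and 9.72 RPKM in hypothyroid L-NCOR1ΔID livers, all below the lowest WT library at 14.1 RPKM. It was the only gene of the 10 whose libraries did not overlap in this comparison, against 13.1% of all genes tested, at a log2 fold change of -0.33 (SE 0.11, adjusted p = 0.117 by limma). Irs1 was at 3.92, 3.00, 3.25 and 3.94 RPKM (log2 fold change -0.35, adjusted p = 0.167). Foxo1 was at 14.0, 13.6, 11.7 and 9.36 RPKM, with only replicate 4 inside the WT range (log2 fold change 0.35, adjusted p = 0.212). Foxo3 was at 14.6, 12.9, 14.2 and 10.5 RPKM (log2 fold change -0.08, adjusted p = 0.758).

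For the remaining 3 genes, Pik3r1 was at 14.5 to 18.8 RPKM, Irs2 at 1.85 to 3.31 RPKM and Grb10 at 0.63 to 1.08 RPKM in hypothyroid L-NCOR1ΔID livers, with log2 fold changes of -0.20, -0.26 and 0.18 and adjusted p of 0.418, 0.614 and 0.588. The ratio of Akt1 to Akt2 differed from hypothyroid WT by 0.05 on the log2 scale and that of Irs1 to Irs2 by -0.09 (two-sided exact permutation tests, p = 0.857 and 0.743).

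Hyperthyroid WT livers were also set against hypothyroid L-NCOR1ΔID livers, a comparison in which genotype and hormone both differ and which shares its hyperthyroid libraries with the comparison above. Akt1 was higher in hyperthyroid WT livers (log2 fold change 1.60, SE 0.10, adjusted p = 1.38e-05), and so was Akt2 (0.37, adjusted p = 0.00992), the latter on the RPKM scale only (0.18 after scaling, adjusted p = 0.206) and in 1 of the 8 fits that left out a library. These are 2 of 10 genes, and 21.2% of 14017 genes were called. The groups did not overlap for 7 of the 10 genes, against 38.3% of all genes. These 7 include Foxo3 (log2 fold change -0.46, adjusted p = 0.0169), Pik3r1 (0.59, adjusted p = 0.0178), Trib1 (0.72, adjusted p = 0.029) and Foxo1 (0.36, adjusted p = 0.0517), which are not called. Insr, at 19.3 to 21.1 RPKM in hypothyroid L-NCOR1ΔID livers, lay in every library above the hyperthyroid WT libraries, which reach 18.7 RPKM (log2 fold change -0.22, adjusted p = 0.0556). After scaling, Insr (-0.41, adjusted p = 0.00657) and Foxo3 (-0.65, adjusted p = 0.00369) were called lower.

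Around these 10 genes, 58 other genes of the pathway were examined, of which 56 passed the filter; Irs4 and Foxo6 did not. With T3, 20 of the 56 were higher and 2 lower (39.3% in all, against 32.2% of all genes, of which 24.5% were higher and 7.71% lower). Their median log2 fold change was 0.33 against 0.23 over all genes. After scaling 8 of the 56 were higher and 4 lower, beside 1729 higher and 1932 lower of all 13941 genes. Of the 70 pathway and output genes tested together, 2 were lower, against 1 to 4 with a library left out, with 4 without hyperthyroid replicate 1 and 1 without hyperthyroid replicate 2, 3 or 4 or hypothyroid replicate 1, 3 or 4. The genes of the PI3K and AKT step held 9 of the 20, of 16 tested, or 56.2% against 24.5% of all genes. They include Pik3cd, which encodes a PI3K catalytic subunit found mainly in leukocytes and which went from 0.56 to 1.74 RPKM (log2 fold change 1.49, adjusted p = 8.9e-05), the regulatory subunit Pik3r3 (0.41 to 0.81 RPKM, 0.88, adjusted p = 0.0066) and the atypical kinase Prkci (4.22 to 7.49 RPKM, 0.82, adjusted p = 0.000418). Beside Pik3cd stands the rise of the macrophage markers given above, whose part in its change was not tested. After scaling, 3 of the 16 were still called higher, Pik3cd, Prkci and the mTORC2 subunit Mapkap1, beside 1729 of all 13941 genes. Pik3r3 was not called after scaling (adjusted p = 0.0224).

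The counts in the other steps stand beside the same 24.5% higher and 7.71% lower over all genes. Counts after scaling stand beside 1729 higher and 1932 lower of all 13941 genes. Next to the receptor, 3 of 9 genes were higher and 2 lower, or 2 higher and 2 lower after scaling. The adaptor Shc1, which leads from the receptor to RAS, went from 10.5 to 17.7 RPKM (log2 fold change 0.75, adjusted p = 0.000104), and Sh2b2, an adaptor that binds the receptor, from 0.30 to 0.92 RPKM (1.36, adjusted p = 0.000417), and both were called after scaling too (0.52 and 1.16, adjusted p = 0.000528 and 0.00075). Among the genes that were lower was the docking protein Gab1 (-0.46, adjusted p = 0.0063, or -0.69 after scaling, adjusted p = 0.000874). Of 12 negative regulators, 4 were higher, among them the phosphatase Ptpn1, known as PTP1B, which dephosphorylates the receptor, from 6.05 to 11.6 RPKM (0.90, adjusted p = 0.000747, or 0.67 after scaling, adjusted p = 0.00717). Of the RAS and MAPK genes 3 of 8 were higher, and shares of 4 in 12 and 3 in 8 are near the background. After scaling, 2 of the 12 negative regulators were higher, and of the 8 RAS and MAPK genes 0 were higher and 1 lower. Of the mTORC1 genes 0 of 9 were called by limma on the RPKM scale, where 2 had an unadjusted p under 0.05. After scaling, 1 of the 9 was called lower. Of the 2 genes of insulin clearance, Ceacam1 was higher (0.62, adjusted p = 0.000345, or 0.38 after scaling, adjusted p = 0.00371).

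In hypothyroid L-NCOR1ΔID livers, 0 of the 56 pathway genes were called by limma, against 1.27% of all genes, and 6 had an unadjusted p under 0.05 (against 20.5% of all genes).

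Genes that insulin is known to raise or lower in liver were read as the output of the pathway. Of 8 genes that insulin raises, 2 were higher with T3, among them Pnpla3, a lipase family member on lipid droplets, from 0.12 to 9.31 RPKM (log2 fold change 5.24, adjusted p = 1.21e-05, or 5.05 after scaling, adjusted p = 2.54e-05). Of 6 genes that insulin lowers, also 2 were higher, Igfbp1, which binds insulin-like growth factors, from 17.9 to 175 RPKM (3.39, adjusted p = 0.00723), and Pdk4, which inhibits pyruvate dehydrogenase, from 0.78 to 2.93 RPKM (1.70, adjusted p = 0.00674), neither after scaling (adjusted p = 0.014 and 0.0183). On the RPKM scale, the 2 lists with opposite responses to insulin thus each had 2 genes higher. After scaling, 1 of the 8 genes that insulin raises was higher and 1 lower. Of the 6 that insulin lowers, 0 were higher and 1 lower, beside 1729 higher and 1932 lower of all 13941 genes. Libraries varied widely for Igfbp1, which was at 2.76 to 32.1 RPKM in hypothyroid and 59.3 to 409 RPKM in hyperthyroid WT livers, with the top value in replicate 2. The shares of 2 in 8 and 2 in 6 are near the 24.5% of all genes. In hypothyroid L-NCOR1ΔID livers, 1 of the 8 genes that insulin raises was called, Scd1, a fatty acid desaturase, at 3745 to 8000 RPKM against 828 to 1046 RPKM in hypothyroid WT (2.53, adjusted p = 0.000693), and its level was 180 to 720 RPKM in hyperthyroid WT livers, where it was not called against hypothyroid WT.

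**Figure D5:**
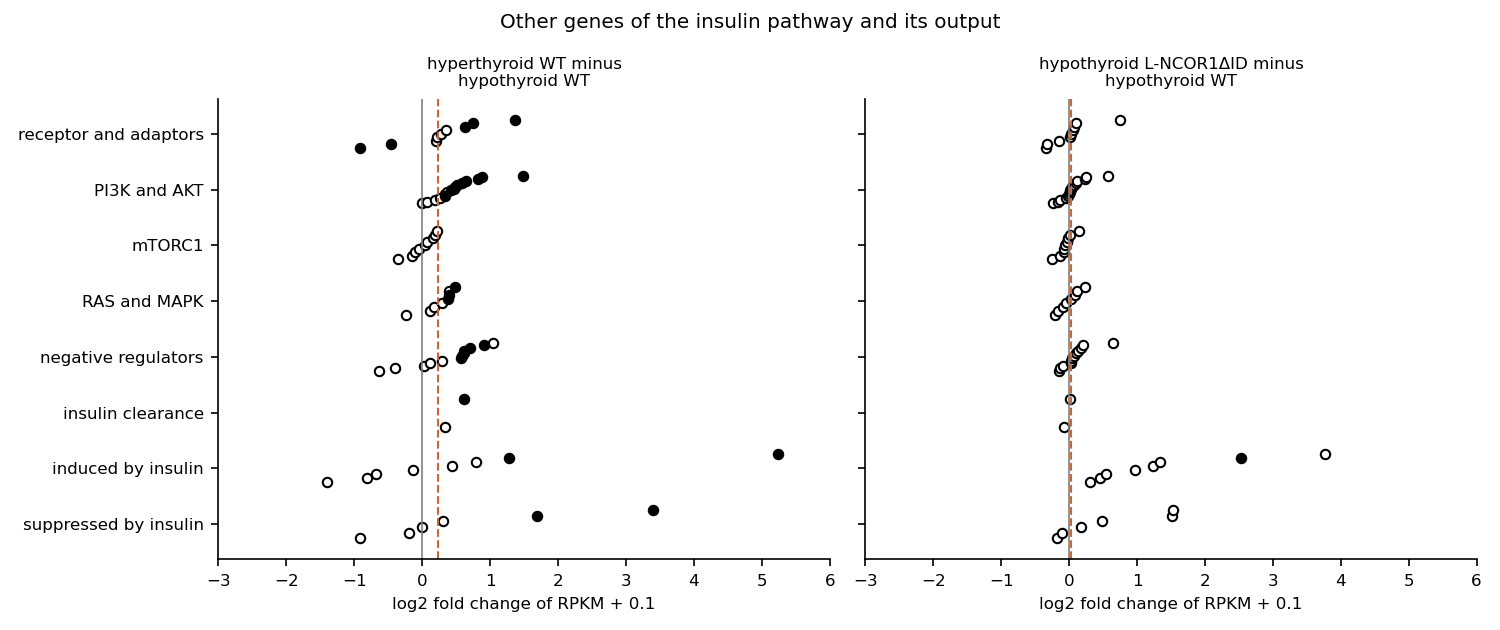
Log2 fold changes of the other pathway genes and of output genes with T3 (left) and in L-NCOR1ΔID (right), with 1 point per gene, filled where the adjusted p is under 0.01, and the median of all genes as a dashed line. Most filled points lie to the right in the left panel, where Pnpla3 reaches 5.24, and Scd1 at 2.53 is the single filled point in the right panel.

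Genes with a profile like that of the 2 genes with the smallest adjusted p with T3 were listed by Pearson's r over the 12 libraries, among 10662 genes with a mean of at least 1 RPKM. The libraries share their groups, so that any gene that differs between them in the same way ranks high. Closest to Akt1 were Rfk (r = 0.995), at a mean of 17.8 RPKM in hypothyroid WT, 50.3 RPKM in hyperthyroid WT and 17.8 RPKM in hypothyroid L-NCOR1ΔID livers, Metrn (r = 0.993) and Rab34 (r = 0.991). Closest to Foxo1 were Wipf1 (r = 0.985), Pcolce (r = 0.978) and Cdkn2c (r = 0.973). Wipf1, at means of 0.86, 1.82 and 1.25 RPKM, Pcolce and Cdkn2c share with Foxo1 a mean in the mutant between those of the WT groups. They were picked for this likeness, so the shared order adds nothing to it.

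The neighbours of Akt1 were added after their values were seen. Of the 5 tested genes with a start site within 100 kb of the perfect repeat, Akt1 was higher with T3 and Adssl1, the gene that holds the repeat, was lower, from 18.9 to 4.79 RPKM (log2 fold change -1.92, adjusted p = 3.56e-05). Siva1, whose start site is 4550 bp from the repeat, had a log2 fold change of -0.64 (adjusted p = 0.0376), Zbtb42 of 0.52 (adjusted p = 0.0386) and Inf2 of -0.01 (adjusted p = 0.98). On the opposite strand, other genes share exons with Irs1, Irs2, Pik3r1 and Foxo1, and whether the counting used the strand is not given in the sources used here.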

How the data were processed

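The deposited table gives RPKM per RefSeq transcript in 12 liver RNA libraries; per the sources, the authors aligned poly(A) RNA reads to mm9 with STAR and quantified them with HOMER (versions and strand not given in the sources used here). Reads of each sample came from 2 sequencing instruments in all groups. The authors also deposited other values: start and end coordinates of 37200 merged acetylated regions on mm9, without levels. The table has 31370 transcripts, and 1 that names no gene, with at most 0.000785% of a library's summed RPKM, was dropped, and 0 unused columns of per-sample values.

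Depth was estimated from the steps between the lowest RPKM values and transcript lengths. limma 3.58.1 (R 4.3.3) was run on log2(RPKM + 0.1) with a variance trend, with only the 2 groups compared in a fit, and p-values were adjusted by Benjamini-Hochberg over all genes tested. A call is an adjusted p under 0.01, the study's threshold for differential expression, which the study applied with another test than limma. To define T3-induced genes, the study also asked for a log2 fold change above 1, which a call here does not. Among the 10 genes, only Akt1 passed that size with T3 (log2 fold change 1.64). Fold changes on this scale understate those of low genes. Tested on simulated data with 13813 genes and the T3 groups, the fit called 72% of 100 genes changed by 1 on the log2 scale. It called 95% of 100 genes changed by 2. With 13656 genes and the L-NCOR1ΔID groups it called 77.5% of 111 and 91% of 89, and 4 unchanged genes. The changed genes had a mean of at least 1 RPKM, and the noise was normal and independent. These shares thus do not cover genes as low as Grb10, or data with as many changed genes as with T3. Ratios of paralogs were compared by exact permutation, and genes were placed with GENCODE M1. Figures were drawn with matplotlib 3.10.9 in Python 3.11.15.

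All 10 members are named. Of the pathway and output lists, up to 12 called genes with the largest log2 fold changes were to be named in full, and others (Gab1, Mapkap1, Ceacam1, Socs3 and the neighbours of Akt1) are named after their values were seen. Some genes of these lists are counted but not reported here by name. The members and lists were chosen with earlier results of these data known. Markers of 11 cell types were summed per library. Beside the Kupffer cell, hepatocyte and acinar markers given above, sums for stellate markers were 41.0 to 57.4 RPKM in hypothyroid WT, 72.9 to 82.4 RPKM in hyperthyroid WT and 57.8 to 101 RPKM in hypothyroid L-NCOR1ΔID livers. Endothelial markers summed to 18.1 to 26.5, 28.2 to 35.9 and 24.6 to 34.2 RPKM and erythroid markers to 140 to 204, 147 to 214 and 112 to 194 RPKM. The erythroid sums hide opposite changes with T3, as 2 of the 3 markers were called higher and Alas2 was called lower. After scaling, Alas2 alone was called. Its means were 83.5, 11.4 and 39.2 RPKM in the same order of groups, and it was called lower in L-NCOR1ΔID too. Cholangiocyte, lymphocyte and adipocyte markers stayed at or below 4.81 RPKM, neutrophil markers reached 16.2 RPKM in hyperthyroid WT (replicate 2), and muscle markers reached 16.6 RPKM in hypothyroid WT livers.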

Additional observations from a re-analysis of the deposited data

How the results depend on the processing

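Of 327 log2 fold changes of the 10 genes under an alternative other than leaving out a library, 303 kept their direction and their side of the threshold, 13 lost a call, 9 gained a call and 2 turned; of 240 with a library left out, the numbers were 214, 11, 1 and 14. Akt1 was called with T3 under each of the 11 alternatives run, with log2 fold changes of 1.41 to 1.65. Grb10 has no value with a mean of at least 1 RPKM. Both turns came in the comparison of hyperthyroid WT with hypothyroid L-NCOR1ΔID livers with scaled libraries, -0.030 for Irs1 and -0.14 for Grb10. With a library left out, the values that turned ranged from -0.14 to 0.61 for Irs2 with T3, in L-NCOR1ΔID from -0.095 to 0.023 for Insr, -0.011 to 0.13 for Akt1, -0.067 to 0.028 for Akt2 and -0.17 to 0.018 for Foxo3, and for Grb10 between hyperthyroid WT and L-NCOR1ΔID from -0.070 to 0.17.

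With T3, 3 of the 10 genes were called higher and 1 lower. The gene called lower was lost (0) without the filter on low values, which tests more genes, and with a log2 fold change above 1 asked for, which left 1 higher; scaling gave 2 lower. With a library left out, 2 to 3 were higher and 0 to 1 lower, with 0 lower without hypothyroid WT replicate 1 or 4. Of the 70 pathway and output genes tested together, 24 were higher and 2 lower with T3. They were 13 and 1 without the filter, 9 and 6 with scaled libraries, 38 and 6 at an adjusted p under 0.05, and 6 and 0 with a log2 fold change above 1; a fit of all 12 libraries left 1 lower. With a library left out, 15 to 21 were higher (15 without hypothyroid WT replicate 4) and 1 to 4 lower, 4 without hyperthyroid replicate 1 and 1 without replicate 3, the library with acinar markers. In L-NCOR1ΔID, the 1 called pathway or output gene became 0 without the filter, 2 in a fit of all 12 libraries, 3 at an adjusted p under 0.05, and 1 to 2 with a library left out (2 without L-NCOR1ΔID replicate 2). Between hyperthyroid WT and L-NCOR1ΔID livers, the 2 genes called higher became 1 with a pseudocount of 1 or 0.01, without the filter, without the variance trend, with scaled libraries and with a log2 fold change above 1, 3 in a fit of all 12 libraries, which added Trib1 (adjusted p = 0.00893), and 4 at an adjusted p under 0.05; with a replicate block they were again 2, with Pik3r1 (adjusted p = 0.00896) in place of Akt2 (adjusted p = 0.0362). Akt2 was called there in 4 of the 11 alternatives. With a library left out they were 1 to 2 higher and 0 to 1 lower. Called lower were 1 in a fit of all 12 libraries, 2 with scaled libraries and 1 at an adjusted p under 0.05, against 0. The cause of these moves was not tested, except that fewer or more tests follow from the filter.

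The log2 ratio in L-NCOR1ΔID against WT ranged with a library left out from -0.27 to 0.13 for Irs1 over Irs2 and from -0.034 to 0.17 for Akt1 over Akt2. The median number of acetylated regions near the 10 genes was 6 within 50 kb and 15.5 within 200 kb.

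Libraries of different groups share replicate numbers, but same-numbered libraries did not deviate together (correlations of -0.08 to 0.09 for T3 and -0.21 to 0.27 for L-NCOR1ΔID), so the numbers were not taken as pairs. A fit with the replicate number as a block left 2 genes higher and 1 lower with T3, without Akt2 (adjusted p = 0.0122), and 20 and 2 of the 70 pathway and output genes. In L-NCOR1ΔID it left 0, without Scd1. Over signs of same-numbered differences, which allow no p below 0.125, the ratio tests gave 0.125 for Akt1 over Akt2 and for Foxo1 over Foxo3 with T3.

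RPKM at 0.1 rests on 2.13 to 4.28 reads per kilobase. Grb10 lay above that level, at 0.61 RPKM or more in each library. It still rests on fewer reads per kilobase than the other genes of the 10, which limits what can be seen for it.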
